A study of Drosophila melanogaster with 2 samples.

Results

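The genes described here encode nuclear subunits of oxidative phosphorylation in Drosophila melanogaster, though not all of them, together with annotated paralogues. They were chosen by symbol alone, as the protein-coding genes whose names begin with ND-, with COX and a digit, with UQCR or with ATPsyn, and SdhA, SdhB, SdhC and SdhD, on the nuclear chromosomes of the dm6 annotation. The choice gave 84 genes of 13968 protein-coding genes, with 40 in complex I, 4 in complex II, 9 in complex III, 16 in complex IV and 15 in complex V. Among them, 21 are paralogues by name, with an L added to a subunit's name (ND-51L1, COX4L), and 63 are not. For 4 of the 21 (COX6AL, COX6AL2, COX6CL and ATPsynepsilonL) the name without the L is no gene symbol in the annotation, so they were called paralogues from their names after the list had been seen.

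Chromatin immunoprecipitation and sequencing (ChIP-seq) was used to map where a CG11696-eGFP fusion protein contacts DNA. CG11696 encodes a zinc finger protein. The fly strain carries the tagged transgene, the precipitation used an antibody to the fluorescent tag, and chromatin of whole embryos aged 0 to 24 h was sonicated to a size range of 200 to 800 bp. There was 1 group of 2 biological replicates and no contrasting condition, so the results are positions and strengths of peaks with the spread between both replicates, and no test between conditions was possible. Whole embryos mix many cell types and ages, so binding in fewer cells and weaker binding per cell cannot be told apart. The authors deposited peak lists on dm6 made against a control. The number of reads behind each list was not stated, so the depth is unknown.

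Oxidative phosphorylation takes place in the inner mitochondrial membrane. Complexes I and II pass electrons from NADH and succinate to ubiquinone, complex III passes them on to cytochrome c, and complex IV reduces oxygen. Complexes I, III and IV pump protons, and complex V, the ATP synthase, uses the gradient to make ATP. Apart from a few subunits encoded by mitochondrial DNA, the subunits are made from nuclear genes scattered over the chromosomes.

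The fusion protein had a reproducible peak at 7 of the 84 promoters, those of ND-ASHI, ND-PDSW, ND-24, ND-MWFE, COX5A, ATPsynE and ND-51. The 101 bp around the summit are printed for 5 of them, so that the base composition under the peaks can be read directly. ND-PDSW, whose window has 73 bases of annotated UTR, and ND-MWFE are not shown. The printed set therefore leaves out ND-PDSW, the 1 bound summit that was not rich in A and T, with 51.5% of such bases. Each runs 5′ to 3′ along the strand of the respiratory gene, from the RefSeq copy of the Release 6 (dm6) genome, with bases of annotated UTRs trimmed from 2 of them (ND-24 and ATPsynE). Capitals mark every unbroken run of 6 or more A or T bases.
ND-ASHI, chrX:6679310-6679410, minus strand: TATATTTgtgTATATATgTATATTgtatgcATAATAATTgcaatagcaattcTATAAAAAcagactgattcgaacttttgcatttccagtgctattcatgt
ND-24, chrX:17632180-17632253, plus strand: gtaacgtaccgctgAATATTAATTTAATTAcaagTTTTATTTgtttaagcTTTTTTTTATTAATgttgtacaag
COX5A, chr3R:11819434-11819534, plus strand: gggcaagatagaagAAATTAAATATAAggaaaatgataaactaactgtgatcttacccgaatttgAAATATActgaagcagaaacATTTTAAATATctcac
ATPsynE, chr3R:14326877-14326946, plus strand: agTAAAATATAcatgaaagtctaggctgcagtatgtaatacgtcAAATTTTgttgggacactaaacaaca
ND-51, chr2L:6062827-6062927, minus strand: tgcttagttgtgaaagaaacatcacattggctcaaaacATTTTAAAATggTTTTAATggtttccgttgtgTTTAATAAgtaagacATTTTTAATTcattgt
The longest of these runs is that of ND-24, with 16 bases. The run in capitals at COX5A reached 13 bases, that of ND-51 reached 10, and those of ND-ASHI and ATPsynE reached 9.

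A promoter was counted as bound when the summit of a peak in the conservative thresholded list lay within 500 bp of any annotated transcription start site (TSS) of the gene. That list keeps peaks with an irreproducible discovery rate (IDR) of about 0.01 or less across the replicates. The IDR estimates the share of irreproducible peaks at that rank or better and is not a p-value. By this count 7 of 84 genes were bound, or 8.33%, beside 10.1% of all protein-coding genes. The optimal thresholded list gave 6 of 84, beside 11.7% of all genes. In its own thresholded list replicate 1 had 3 (ND-ASHI, ND-PDSW and ND-MWFE), beside 7.44% of all genes, and replicate 2 had 3 (ND-ASHI, ND-PDSW and ND-24), beside 7.4%. The share of respiratory genes that were bound was thus near or below that of all genes in each list. The bound genes were 5 of the 40 in complex I, 1 of 16 in complex IV and 1 of 15 in complex V, with none of the 4 in complex II and none of the 9 in complex III. All 7 belonged to the 63 genes that are not paralogues (11.1% of them), and none of the 21 paralogues was bound.

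ND-ASHI, an accessory subunit of the membrane arm of complex I (NDUFB8 in mammals), had by far the strongest peak of the 84 promoters. The peak spans chrX:6679218-6679510 and its signal value, the authors' measure of peak strength in the units of their peak caller, was 718.5 in the pooled list. The signal was 332.3 in replicate 1 and 372.9 in replicate 2 (353 ± 28.7, SD, n = 2), on the scale of the replicate lists, which is not that of the pooled list. Both replicates thus placed it far above the next promoter. It was the 64th strongest of 3143 conservative peaks and the 43rd of the 1293 whose summit lay within 500 bp of a TSS, with an IDR of 1e-05. The summit lay 242 bp upstream of one TSS of ND-ASHI and 280 bp upstream of a TSS of Fum1, in an intron of Fum1. Fum1 encodes fumarase, an enzyme of the tricarboxylic acid cycle, so a single peak sits between a subunit of the respiratory chain and an enzyme of the cycle that feeds it. The closest TSSs of this divergent pair are 164 bp apart, and they lie farther from the summit, 1100 bp for ND-ASHI and 936 bp for Fum1.

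ND-PDSW, another accessory subunit of the complex I membrane arm (NDUFB10 in mammals), followed with a pooled signal of 164.3 at chr2L:3465490-3465833. Its signal was 88.5 in replicate 1 and 80.7 in replicate 2 (84.6 ± 5.50, n = 2), and its IDR was 2.98e-05. Here the summit lay 495 bp upstream of the ND-PDSW start, just inside the window, and 450 bp downstream of the start of msl-2, within the msl-2 5′ UTR. The start sites of ND-PDSW and msl-2 are 45 bp apart. msl-2 encodes the limiting component of the complex that raises transcription from the male X chromosome. Among the 7 bound genes this was the summit farthest from its start site, and it was also the one inside the transcribed leader of the partner.

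ND-24 and ND-51 encode core subunits of the module that takes electrons from NADH (NDUFV2 and NDUFV1 in mammals), and both promoters were bound. ND-24 had a pooled signal of 106.6 at chrX:17632037-17632380, with 34.4 in replicate 1 and 68.7 in replicate 2 (51.5 ± 24.2, n = 2). Its replicates differed by 1.00 on the log2 scale, the widest gap among the 7, and it passed the threshold in the list of replicate 2 but not in that of replicate 1. ND-51 had a pooled signal of 63.9 at chr2L:6062705-6063048, with 29.6 in replicate 1 and 43.4 in replicate 2 (36.5 ± 9.82, n = 2). It passed in neither replicate alone, and its IDR of 0.00827 was the closest to the threshold of the 7. The summit at ND-24 lay 112 bp upstream of one TSS and 120 bp downstream of another, and 162 bp upstream of the start of corolla, a component of the synaptonemal complex that holds meiotic chromosomes together. A second, weak peak overlapped it at chrX:17632245-17632588 with a pooled signal of 4.67, and it was matched to the same replicate peaks. The summit at ND-51 lay 120 bp upstream of its start and 112 bp upstream of CG13994. ND-75, which encodes the largest subunit of the same module, was not bound, and its highest ranked summit had a signal of 30.8 with an IDR of 0.888.

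ND-MWFE, the small membrane subunit known as NDUFA1 in mammals, had a pooled signal of 96.8 at chr2R:13158316-13158659. The signal was 45.9 in replicate 1 and 53.6 in replicate 2 (49.7 ± 5.44, n = 2), with an IDR of 0.000683. The replicates were close, but the peak passed the threshold in the list of replicate 1 and not in that of replicate 2. Its summit lay 178 bp upstream of ND-MWFE and closer to the partner, 43 bp upstream of a start of TppII, the gene of tripeptidyl-peptidase II.

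Among the 84 genes, complexes IV and V had 1 bound gene each. The symbol rule leaves out blw, the alpha subunit of ATP synthase, which was bound with a pooled signal of 130.2. COX5A, a nuclear subunit of cytochrome c oxidase, had a pooled signal of 91.5 at chr3R:11819312-11819655, with 42.5 in replicate 1 and 38.8 in replicate 2 (40.6 ± 2.57, n = 2) and an IDR of 0.00215. ATPsynE, the subunit E of ATP synthase, had a pooled signal of 88.1 at chr3R:14326755-14327098, with 38.2 in replicate 1 and 41.6 in replicate 2 (39.9 ± 2.40, n = 2) and an IDR of 0.00233. Neither passed in a replicate's own list, although their replicate values differed by less than those of ND-24 and ND-51. ATPsynE was also absent from the optimal list, and the other 6 were present there. The COX5A summit lay 115 bp upstream of one COX5A start and 64 bp upstream of a start of glo, which encodes an RNA-binding repressor of nanos translation. The summit at ATPsynE lay 20 bp upstream of its start, the nearest of the 7, and 238 bp upstream of Afti, whose product takes part in clathrin-mediated traffic.

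The order of the 7 pooled signals was ND-ASHI, ND-PDSW, ND-24, ND-MWFE, COX5A, ATPsynE and ND-51. Both replicates kept ND-ASHI first and ND-PDSW second. Below these, the order held only in part. In replicate 1, ND-24 at 34.4 fell under ND-MWFE at 45.9, COX5A at 42.5 and ATPsynE at 38.2, while in replicate 2 it stood above all of them. Among the last 5, ND-MWFE stood above COX5A, ATPsynE and ND-51 in both replicates and ND-24 above ND-51, while the order of COX5A, ATPsynE and ND-51 changed between them. The replicate summits of a peak were 1 to 49 bp apart, with the widest shift at ND-24.

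**Figure D1:**
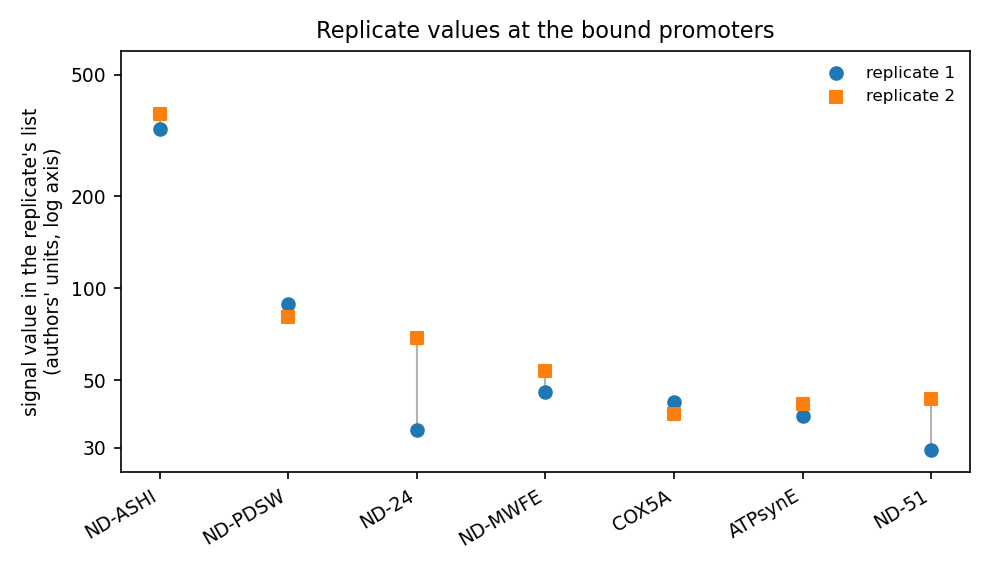
Signal value of each of the 7 bound promoters in replicate 1 (circles) and replicate 2 (squares), on a log axis in the authors' units, with genes ordered by pooled signal. ND-ASHI stands at 332.3 and 372.9, ND-PDSW at 88.5 and 80.7, and the other 5 lie between 29.6 and 68.7, with the widest gap at ND-24.

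All 7 bound genes had a divergent partner, meaning an oppositely directed gene whose start lies head to head within 1000 bp. Such a partner was found for 46 of the 84 genes (54.8%) and for 39.6% of all protein-coding genes. Among the 1404 bound protein-coding genes, 887 had one, so most bound genes have a partner. Of the 46 with a partner 7 were bound (15.2%), and of all genes with a partner 16.0% were. Of the 38 without a partner none was bound, beside 6.13% of all genes without one. Each of the 7 partners is protein-coding and had its own start within 500 bp of the same summit. The distance between the nearest start sites of a pair was 20 bp for COX5A and glo, 42 bp for ND-24 and corolla, 45 bp for ND-PDSW and msl-2, 164 bp for ND-ASHI and Fum1, 221 bp for ND-MWFE and TppII, 232 bp for ND-51 and CG13994 and 258 bp for ATPsynE and Afti. Except for fumarase, none of the partners with a role given above is a mitochondrial enzyme, and no respiratory genes of the 84 shared a promoter with each other. Partners were unevenly spread, with 43 of the 63 genes that are not paralogues (68.3%) and 3 of the 21 paralogues (14.3%) having one. The paralogues thus had few shared promoters and no bound gene. The part of shared promoters in the absence of bound paralogues was not tested.

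**Figure D2:**
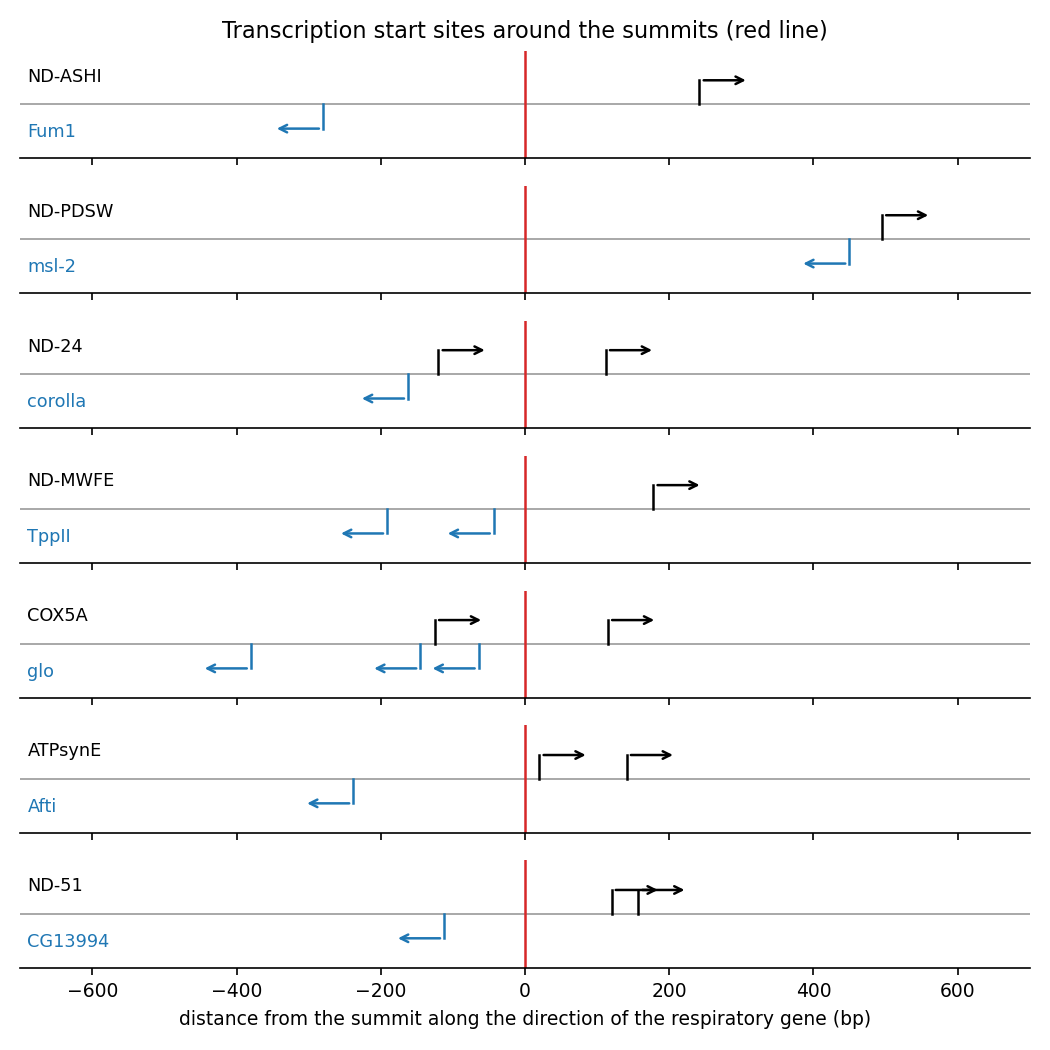
Annotated start sites around each of the 7 summits (red line at 0), with distance in bp along the direction of the respiratory gene. Black arrows above the line are starts of the respiratory gene and blue arrows below it are starts of the partner. The summit lies between diverging starts at ND-ASHI, ND-MWFE, ATPsynE and ND-51, and outside the pair at ND-PDSW. ND-24 and COX5A have a start on each side of it. Starts farther out are not drawn. These are 2 further ND-ASHI starts and 1 Fum1 start at ND-ASHI, and a spn-B start 1124 bp from the ATPsynE summit. A TppII start 653 bp from the ND-MWFE summit is also left out, and that summit lies in a TppII intron.

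The nearest start of the respiratory gene was downstream of the summit at all 7 promoters, at a median distance of 120 bp. Over the 1404 bound protein-coding genes the median distance was 154.5 bp, with 1172 summits upstream of the start and 230 downstream. At ND-MWFE, COX5A, ND-51 and ND-PDSW the partner's start was nearer to the summit than that of the respiratory gene, and at ND-ASHI, ND-24 and ATPsynE it was farther.

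Weaker summits were common. The conservative ranked list, which holds 96052 peaks before any threshold, had a summit within 500 bp of a start at 50 of the 84 genes (59.5%), beside 64.7% of all protein-coding genes. The median of the highest such signal was 32.1 over the 50 genes and 35.0 over all genes with one. By complex, ranked summits were found at 23 of 40 genes in complex I (median 30.8, range 9.42 to 718.5), 4 of 4 in complex II (37.8, 30.1 to 66.0), 4 of 9 in complex III (17.0, 2.02 to 24.0), 12 of 16 in complex IV (35.6, 20.2 to 91.5) and 7 of 15 in complex V (35.4, 20.0 to 88.1). Among the genes taken by symbol, complex III thus had the lowest median, over only 4 genes. Its highest gene, UQCR-6.4L, a paralogue, was under the median of all genes. Without paralogues, complex III had ranked summits at 2 of 6 genes, with signals of 11.3 and 22.8. UQCR-6.4L had a signal of 24.0 and an IDR of 0.501. The highest signals near its start were 19.5 in replicate 1 and 25.8 in replicate 2. The 21 paralogues had ranked summits at 13 genes with a median of 26.2 and a highest value of 46.8 (COX5BL), and the 63 other genes at 37 with a median of 32.9. A weak ranked summit was therefore about as common at paralogues as at the other genes, while none of theirs passed the threshold.

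**Figure D3:**
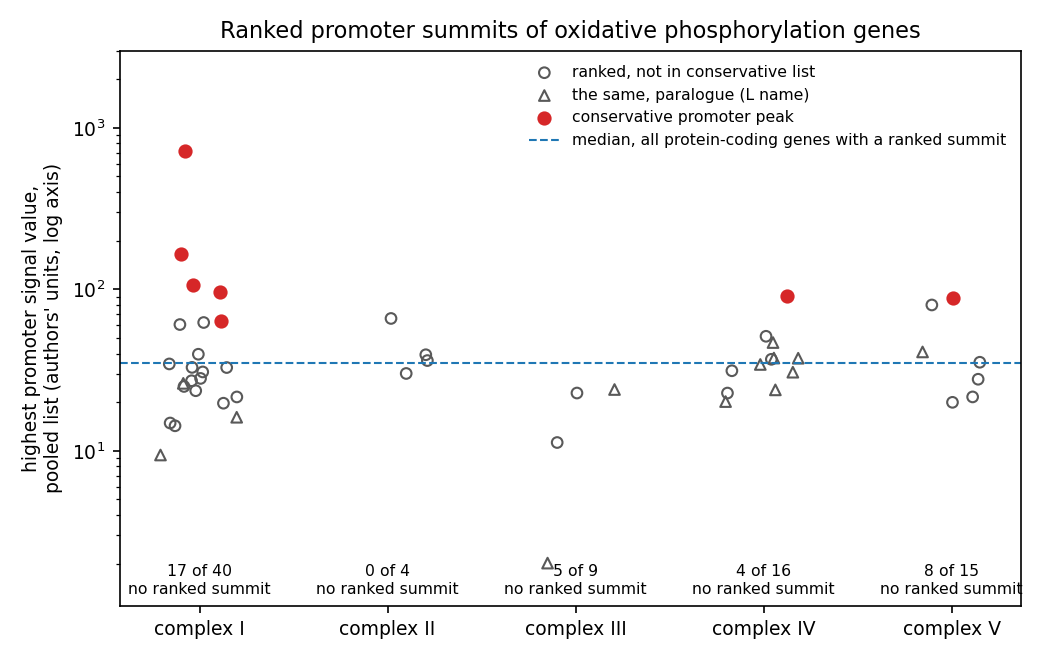
Highest pooled signal value within 500 bp of a start for each of the 50 genes with a ranked summit, by complex, on a log axis. Red points are the 7 bound promoters, open circles the other genes and triangles the paralogues, with the median of all protein-coding genes (35.0) as a dashed line. Complex I holds the top 4 values, and the points of complex III all lie under the line.

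For genes that were not bound, replicate values are the highest ranked signals within 500 bp of a start in each replicate. These need not come from the pooled peak. Among the 77 genes that were not bound, ATPsynC, the rotor ring subunit of ATP synthase, came nearest. Its summit, 270 bp upstream of the start, had a pooled signal of 80.0, with 31.7 in replicate 1 and 43.7 in replicate 2, and an IDR of 0.00527. That IDR passes the threshold and the signal exceeds that of ND-51, but the peak is absent from the deposited thresholded list, for a reason not given in the sources used here. ND-MNLL, a small complex I subunit, followed with a signal of 60.5 at 97 bp upstream and 27.5 and 35.2 in replicates 1 and 2. COX6B, a complex IV subunit, had 51.2 at 61 bp upstream, with 25.7 and 33.0. Their IDRs of 0.0176 and 0.0318 were outside the threshold of about 0.01. The replicate values of both genes were under those of ND-51, which passed it with 29.6 in replicate 1 and 43.4 in replicate 2. Both share their promoters, ND-MNLL with the Golgi tether gene p115 and COX6B with Rpp20, an RNase P subunit gene, and CG33932.

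SdhD and ND-42 were different in kind. SdhD, a membrane anchor of succinate dehydrogenase, had a pooled signal of 66.0 at 16 bp upstream of its start, the highest of complex II, but 46.6 in replicate 1 and 19.7 in replicate 2, and an IDR of 0.669. ND-42, an accessory subunit of complex I, had 62.3 at 352 bp upstream, with 49.5 and 19.2 and an IDR of 0.705. In both, replicate 1 exceeded its value at several bound promoters, while replicate 2 did not rise above any of them. ND-42 shares its promoter with Cchl, which encodes the lyase that attaches heme to cytochrome c.

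The remaining 5 of the 10 strongest unbound genes had pooled signals of 37.5 to 46.8 and IDRs of 0.242 to 0.723. They were COX5BL (46.8), ATPsynepsilonL (41.0), ND-SGDH (39.6), SdhB, the iron-sulphur subunit of succinate dehydrogenase (39.4), and COX4L (37.5). Their summits were 238 to 468 bp from a start, a range that also holds those of ATPsynC and ND-42, while those of ND-MNLL, COX6B and SdhD were nearer. The other subunits of succinate dehydrogenase had 36.2 (SdhA, the flavoprotein) and 30.1 (SdhC, the other anchor). Some subunits central to their complexes had little or no signal, although the core subunits ND-24 and ND-51 were bound. ATPsynbeta, the catalytic subunit of ATP synthase, had 21.6, and only replicate 1 had a ranked summit within 500 bp of a start. UQCR-C2, a core protein of complex III, had 22.8, and only replicate 2 had such a summit. ND-49, the quinone-site subunit of complex I, had no such summit in any of the 3 ranked lists used.

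Across the 84 genes, a ranked summit was found near a start at 53 in replicate 1 and at 54 in replicate 2, although replicate 2 has 123871 ranked peaks and replicate 1 has 49512. These are 63.1% and 64.3% of the genes, beside 54.7% and 71.3% of all protein-coding genes, so the respiratory genes lay above the share of all genes in replicate 1 and below it in replicate 2. Both replicates had one at 37 genes. Over these 37 the highest signals had a Spearman correlation of 0.553, given as a description across genes that share the same 2 libraries, and a median log2 ratio of replicate 2 to replicate 1 of -0.12. The number of genes with a ranked summit was thus similar in both replicates, and a part of them were different genes.

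Peaks outside the 500 bp window were measured by their distance. From the 77 unbound genes to the nearest conservative summit the median distance was 10118 bp, beside 16178 bp over the 12564 unbound protein-coding genes. A conservative summit lay within 1000 bp of a start at 2 of the 77 (ND-39 and SdhA, 2.6%), beside 2.81% of all unbound genes, and within 5000 bp at 23 (29.9%), beside 19.6%. The ND-39 case is a peak of signal 118.2 at chr3L:20494345-20494688, with its summit in an intron of ND-39 and of ZnT77C. That summit lay 830 bp from a start of ND-39, a complex I subunit gene, and 404 bp from a start of ZnT77C. ZnT77C is the divergent partner and a zinc transporter gene by name. The SdhA case has a signal of 126.2 at chr2R:19396703-19397046, 904 bp from the start of SdhA and 103 bp from that of cer. In both, the nearest start was that of the other gene.

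The base composition under the summits was computed after the peaks had been seen. In the 101 bp around the summit, A and T made up 73.3% at ND-ASHI, 80.2% at ND-24, 75.2% at ND-MWFE, 71.3% at COX5A, 68.3% at ATPsynE and 72.3% at ND-51. These 6 exceeded their own flanks, windows of the same length centred 300 bp to either side, which had 44.6% to 57.9%. ND-PDSW was the exception, with 51.5% at the summit and 52.0% in its flanks. The median of the 7 was 72.3%, beside 66.3% (quartiles 57.4% and 73.3%) over the 1293 conservative summits within 500 bp of a start, 54.5% (47.5% and 62.4%) over 15226 other ranked summits near a start and 57.9% over the genome. At the 43 unbound genes with a ranked summit the median was 59.4%, with a range of 36.6% to 81.2%. Their ranges overlap, and ATPsynC, at 73.3%, was within that of the bound promoters. The summit exceeded its flanks at 6 of the 7 bound genes, at 20 of the 43 unbound ones (46.5%), at 71.0% of the conservative summits near a start and at 40.7% of the other ranked ones. No test of these differences was made.

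**Figure D4:**
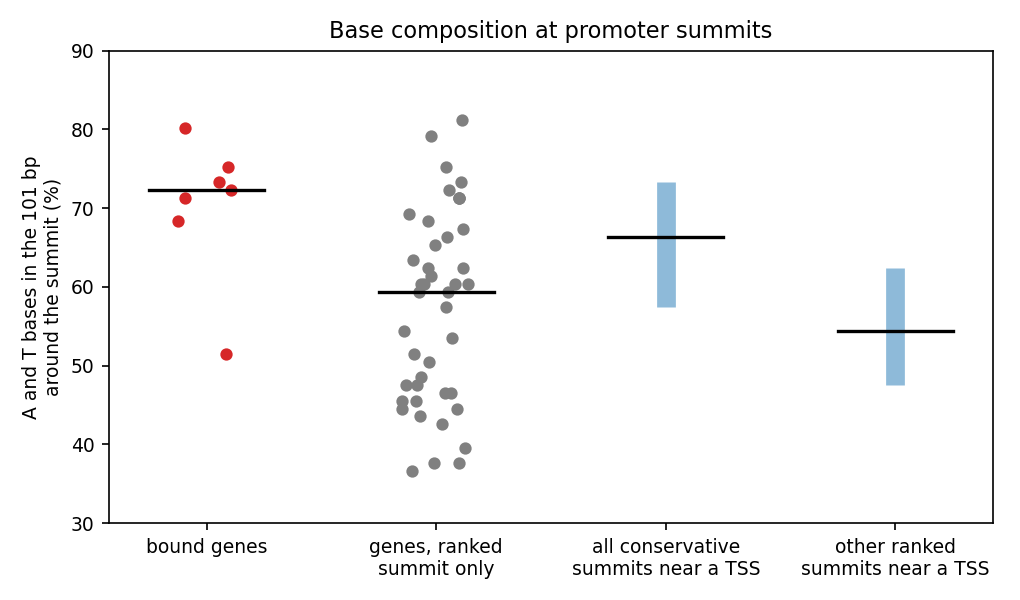
Share of A and T bases in the 101 bp around each promoter summit, for the 7 bound genes, the 43 genes with a ranked summit only, all 1293 conservative summits near a start and 15226 other ranked ones. Points are genes, black lines are medians (72.3%, 59.4%, 66.3% and 54.5%) and blue bars span the quartiles. All bound genes but ND-PDSW lie above 68%.

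Known promoter letters were searched on both strands from 250 bp before to 50 bp after the outermost start of each gene. TATAAA, the letters of the TATA box, was found at 45 of the 84 genes (53.6%), beside 45.8% of all protein-coding genes, and at 4 of the 7 bound ones (ND-ASHI, ND-24, ND-MWFE and COX5A). GGTCACACT, the core of Ohler motif 1 of housekeeping promoters, was found at 15 (17.9%), beside 6.04% of all genes, and at ND-PDSW, ND-MWFE and COX5A among the bound ones. TATCGATA, the DNA replication-related element, was found at 9 (10.7%), beside 9.36% of all genes, and CACGTG, the E-box bound by Myc, at 4 (4.76%), beside 4.2%, with ND-PDSW the only bound gene. GAGAGAG was found at 1 (1.19%), beside 5.86%, and GCGCATGC, a large part of the NRF-1 site of mammals, at none, beside 1.05%. The last pair of letters and TATCGATA were in the window of no bound gene. These are matches of letters in a window, and nothing was measured of the factors.

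Genes of the wider pathway that the symbol rule does not take were examined as lists, again without a test. The shares to read them against are those of all protein-coding genes, 10.1% bound and 64.7% with a ranked summit. The 15 genes listed for electron transport and ATP synthase under other names include sesB and Ant2, which encode ADP/ATP carriers and no subunit. Of the 15, 2 were bound and 10 had a ranked summit (median signal 38.1). The bound ones were Cyt-c-d, the cytochrome c of the male germ line (pooled signal 227.9, replicates 109 ± 37.5, n = 2), and blw, the alpha subunit of ATP synthase (130.2, replicates 60.4 ± 20.4, n = 2). Both exceed every complex IV and V gene described above. Of 17 genes found of 25 listed as assembly factors or for mitochondrial gene expression, 2 were bound and 12 had a ranked summit (median signal 44.4). CIA30, an assembly factor of complex I, had the highest signal of all these lists, 830.5 (replicates 418 ± 11.4, n = 2), at 125 bp upstream of its start, and mtSSB, the mitochondrial single-stranded DNA-binding protein, had 90.1 (51.7 ± 0.371, n = 2). CIA30 thus stood above ND-ASHI in the pooled list and in the replicate mean. A second gene had a start within 500 bp of the summit at Cyt-c-d (CG31808) and at CIA30 (CG7601), and none did at blw and mtSSB.

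Against the same shares of all genes, 10.1% and 64.7%, of 19 genes found of 20 listed for the tricarboxylic acid cycle and pyruvate dehydrogenase, 3 were bound and 14 had a ranked summit (median signal 44.4). One is Fum1, through the peak it shares with ND-ASHI. Idh3g, the gamma subunit of the NAD-dependent isocitrate dehydrogenase, had 269.4 (134 ± 25.6, n = 2) at 105 bp upstream of its start, and Pdp, the phosphatase that activates pyruvate dehydrogenase, had 76.7 (39.7 ± 7.37, n = 2) at 30 bp downstream. Of 7 genes found of 8 listed as transcriptional regulators of mitochondrial genes, 2 were bound, and all 7 had a ranked summit (median signal 52.3). They were Myc (88.3, replicates 44.8 ± 2.16, n = 2) and ERR, the oestrogen-related receptor that drives glycolytic genes in the embryo (61.4, replicates 35.4 ± 3.41, n = 2). The Myc signal was close to that of ATPsynE, and that of ERR was under that of ND-51. Idh3g, Pdp, Myc and ERR each had a second gene with a start within 500 bp of the summit. These were CG4743 at Idh3g, Rab39 at Pdp, lncRNA:CR44999 at Myc and Atg18a at ERR.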

How the data were processed

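Peaks came from a ChIP-seq experiment with 2 biological replicates of whole embryos. The authors deposited, per replicate and for the whole series (conservative and optimal), a ranked and a thresholded list on dm6. Each peak has a deposited signal value, a deposited score capped at 1000 and a deposited −log10 of the IDR. The lowest score in a thresholded list was 830. Aligner, peak caller and settings: not given in the sources used here, and depth is unknown. From these, summits on 7 chromosomes were assigned to genes when within 500 bp of any of 24111 start sites (Ensembl release 115, transposable elements left out). At bound peaks, replicate values are those of the overlapping peak in each replicate. For unbound genes, they are the highest ranked signal within 500 bp of a start in each replicate's own list. Python 3.11.15, pandas 2.3.3, numpy 2.4.6 and matplotlib 3.10.9 were used, and the assignment was tested on simulated data. Replicate p-values were not computed, since there is 1 group. The bound genes, their partners, the 10 strongest unbound genes, the highest of each complex and bound genes of the other lists were named by rule. ATPsynbeta, UQCR-C2, ND-49, ND-75, SdhA and SdhC, and ND-39 as the gene nearest outside the window, were named after their values were seen. The genes and lists were chosen with earlier results of these data known. Alternatives were windows of 250 and 1000 bp, other lists, each replicate alone, the stronger 50% of peaks, the outermost start, interval overlap and other partner limits.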

Additional observations from a re-analysis of the deposited data

How the results depend on the processing

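The count of 7 bound genes became 6 with a window of 250 bp (ND-PDSW lost), 9 with 1000 bp (ND-39 and SdhA gained), 6 in the optimal list (ATPsynE lost), and 8 when ranked peaks at the threshold score or above were used (ATPsynC gained), and it was 7 with the outermost start or with interval overlap. It was 3 to 3 with each replicate's own list, where ND-ASHI and ND-PDSW were kept by both, and 2 with the stronger 50% of peaks. The share of all genes bound was 5.88% to 12.6% over these alternatives, and above that of the respiratory genes in each. With the outermost start the difference was slight, with 8.33% of the respiratory genes beside 8.4% of all genes. The alternatives draw on the same 2 replicates, so they are not independent of each other. The median signal was 20.1 with genes without a ranked summit set to 0, beside 23.4 for all genes. With single replicates the signal was 332.3 to 372.9 at ND-ASHI, 80.7 to 88.5 at ND-PDSW, 34.4 to 68.7 at ND-24, 45.9 to 53.6 at ND-MWFE, 38.8 to 42.5 at COX5A, 38.2 to 41.6 at ATPsynE and 29.6 to 43.4 at ND-51, all in the replicate lists and all under the pooled value. Signal values are not scaled between lists, and the cause of the shift was not tested. All 7 bound genes kept a partner within 500 bp and 6 within 250 bp. Read depth limits which weak promoters could be called and is unknown, and 2 replicates give a spread and no test.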
